A study of Mus musculus with 6 samples.

Results

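Kruppel-like factors are zinc-finger transcription factors, and 10 of their genes (Klf2, Klf3, Klf4, Klf5, Klf6, Klf9, Klf10, Klf11, Klf13 and Klf15) were followed in the liver of FRG mice after withdrawal of NTBC. Members were taken as all probe sets of the array whose only gene symbol in the annotation was 1 of these names, which gave 31 of 45037 probe sets and 10 of 18193 named genes. Whole-liver RNA was measured on 1 Affymetrix whole-genome mouse expression array per mouse. NTBC (nitisinone) blocks an early step of tyrosine breakdown and so keeps toxic intermediates from building up where the last enzyme, FAH, is missing. The 3 FRG-7dNTBC mice had been deprived of NTBC for 7 days, and the 3 FRG+NTBC mice received 16 mg/L of the drug in their drinking water throughout. All 6 were males of 12 weeks on a C57Bl/6J background, fed a chow low in tyrosine and phenylalanine, and all carried the Fah, Rag2 and Il2rg knockouts, so the FRG+NTBC mice are treated mutants and not healthy animals. FRG mice lack mature T, B and NK cells, and the comparison asks what happens to these regulators when the drug that protects a Fah-deficient liver is stopped.

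Proteins of the family share zinc fingers at their carboxyl end, with which they bind GC-rich and CACCC sequences in promoters, and differ in the part that recruits cofactors. KLF2, KLF4, KLF5 and KLF6 act mainly as activators, KLF3 represses through the corepressor CtBP, and KLF9, KLF10, KLF11 and KLF13 can recruit the SIN3A corepressor. In liver, KLF15 is known for its part in amino acid breakdown and gluconeogenesis during fasting, KLF9 and KLF15 for their induction by glucocorticoids, KLF10 for its daily rhythm, and KLF6 for its early induction after injury.

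RefSeq promoters of the GRCm38.p6 build, from 250 bases before to 50 bases after the annotated start, were held for 8 of the 10 genes, Klf5 and Klf10 being the exceptions. An E-box of the letters CACGTG, the sequence bound by the clock proteins CLOCK and BMAL1 and by MYC, was searched on both strands and occurred in 4 of these 8 promoters and in 7.15% of all 32851 promoters of the same length. Klf15 had 3 such matches, starting at positions -228, -172 and -3 from the start site, whereas Klf4 had 1 at -182, Klf6 had 1 at -43 and Klf11 had 1 at -214. A MEF2 motif, the site through which the kinase ERK5 is known to drive Klf2 in endothelial cells, was found in the Klf2 promoter alone among the 8, at -118, and in 3.19% of all promoters. These 5 promoters are shown because they hold either motif, with the MEF2 motif of Klf2 and the E-boxes of the others in capitals. The Klf15 window lies at a start site inside the gene, whose listed first base on chromosome 6 is 90461043. The windows of Klf2, Klf6 and Klf11 lie at the listed first base of their gene. That of Klf4, on the minus strand, lies at the listed last base. A match describes the letters only and is no evidence of binding.
Klf2, chr8:72318812-72319111, plus strand: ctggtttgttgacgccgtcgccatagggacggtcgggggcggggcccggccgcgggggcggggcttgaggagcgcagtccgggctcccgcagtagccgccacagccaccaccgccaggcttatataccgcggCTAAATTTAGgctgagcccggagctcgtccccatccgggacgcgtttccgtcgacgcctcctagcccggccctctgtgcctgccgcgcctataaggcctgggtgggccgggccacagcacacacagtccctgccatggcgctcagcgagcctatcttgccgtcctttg
Klf4, chr4:55532426-55532725, minus strand: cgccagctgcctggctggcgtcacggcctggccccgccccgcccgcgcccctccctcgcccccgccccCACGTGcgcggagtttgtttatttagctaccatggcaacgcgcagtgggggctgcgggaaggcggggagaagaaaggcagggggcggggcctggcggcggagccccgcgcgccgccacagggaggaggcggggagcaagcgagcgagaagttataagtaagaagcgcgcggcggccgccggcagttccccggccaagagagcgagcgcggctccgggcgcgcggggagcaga
Klf6, chr13:5861239-5861538, plus strand: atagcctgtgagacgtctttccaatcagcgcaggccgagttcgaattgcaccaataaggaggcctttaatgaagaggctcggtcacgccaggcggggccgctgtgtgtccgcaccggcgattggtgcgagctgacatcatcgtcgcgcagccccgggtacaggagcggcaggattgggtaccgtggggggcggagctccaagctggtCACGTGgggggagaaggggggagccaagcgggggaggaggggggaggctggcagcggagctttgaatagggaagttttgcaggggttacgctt
Klf11, chr12:24651121-24651420, plus strand: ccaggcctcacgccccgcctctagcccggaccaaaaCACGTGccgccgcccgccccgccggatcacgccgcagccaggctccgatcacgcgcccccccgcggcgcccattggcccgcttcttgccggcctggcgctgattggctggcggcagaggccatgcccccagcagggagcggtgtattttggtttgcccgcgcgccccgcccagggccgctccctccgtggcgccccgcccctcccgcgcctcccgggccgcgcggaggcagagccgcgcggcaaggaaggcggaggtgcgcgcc
Klf15, chr6:90462326-90462625, plus strand: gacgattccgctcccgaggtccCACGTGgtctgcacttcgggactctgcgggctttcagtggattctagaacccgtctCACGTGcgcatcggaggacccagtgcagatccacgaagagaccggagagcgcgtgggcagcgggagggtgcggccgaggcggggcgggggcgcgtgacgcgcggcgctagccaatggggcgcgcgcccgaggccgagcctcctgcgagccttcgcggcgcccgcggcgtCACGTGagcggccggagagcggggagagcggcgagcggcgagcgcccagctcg

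The 6 arrays had median intensities of 33.1 to 34.3 in FRG-7dNTBC livers and 35.3 to 36.5 in FRG+NTBC livers. Log2 values of 2 arrays correlated across probe sets at 0.980 to 0.990 within FRG-7dNTBC, at 0.988 to 0.993 within FRG+NTBC and at 0.930 to 0.955 between the groups. Each probe set was compared with limma, and p-values were adjusted over the whole table. Over all genes, each at its brightest probe set (that of highest mean log2 intensity over the 6 livers), 17.4% were higher and 12.7% lower in FRG-7dNTBC livers at an adjusted p under 0.05, or 30.2% in either direction. After scaling every array to a common 75th percentile, the median over the whole table moved by -0.13 on the log2 scale and 35.7% of calls were higher, against 50.1% without it. Of 5 hepatocyte markers, 0 rose and 1, Cps1, fell (log2 fold change -0.73, limma adjusted p = 0.0103). Lymphocyte markers summed to intensities of 115 to 127 in FRG-7dNTBC livers and 123 to 131 in FRG+NTBC livers, and none of the 5 measured passed limma. An exact permutation test of 3 mice against 3 cannot give a p below 0.1, so the calls rest on the model.

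At their brightest probe set, 4 of the 10 genes rose (Klf2, Klf3, Klf4 and Klf6) and 4 fell (Klf9, Klf10, Klf13 and Klf15) after withdrawal, against the 17.4% and 12.7% of all genes. All 8 changed at least 2-fold, as 8.94% of all genes did upward and 4.95% downward. Klf5 and Klf11 did not pass. For 9 of the 10 genes, all but Klf5, the livers of both groups were fully separated, compared with 46.2% of all genes. The median log2 fold change over the 10 genes was 0.43, beside -0.05 over all genes. With 4 genes higher and 4 lower, this median falls between Klf5 (0.41) and Klf11 (0.45) and describes no common shift. In whole liver, fewer cells of a type and less RNA per cell cannot be told apart, which applies to each value below.

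**Figure D1:**
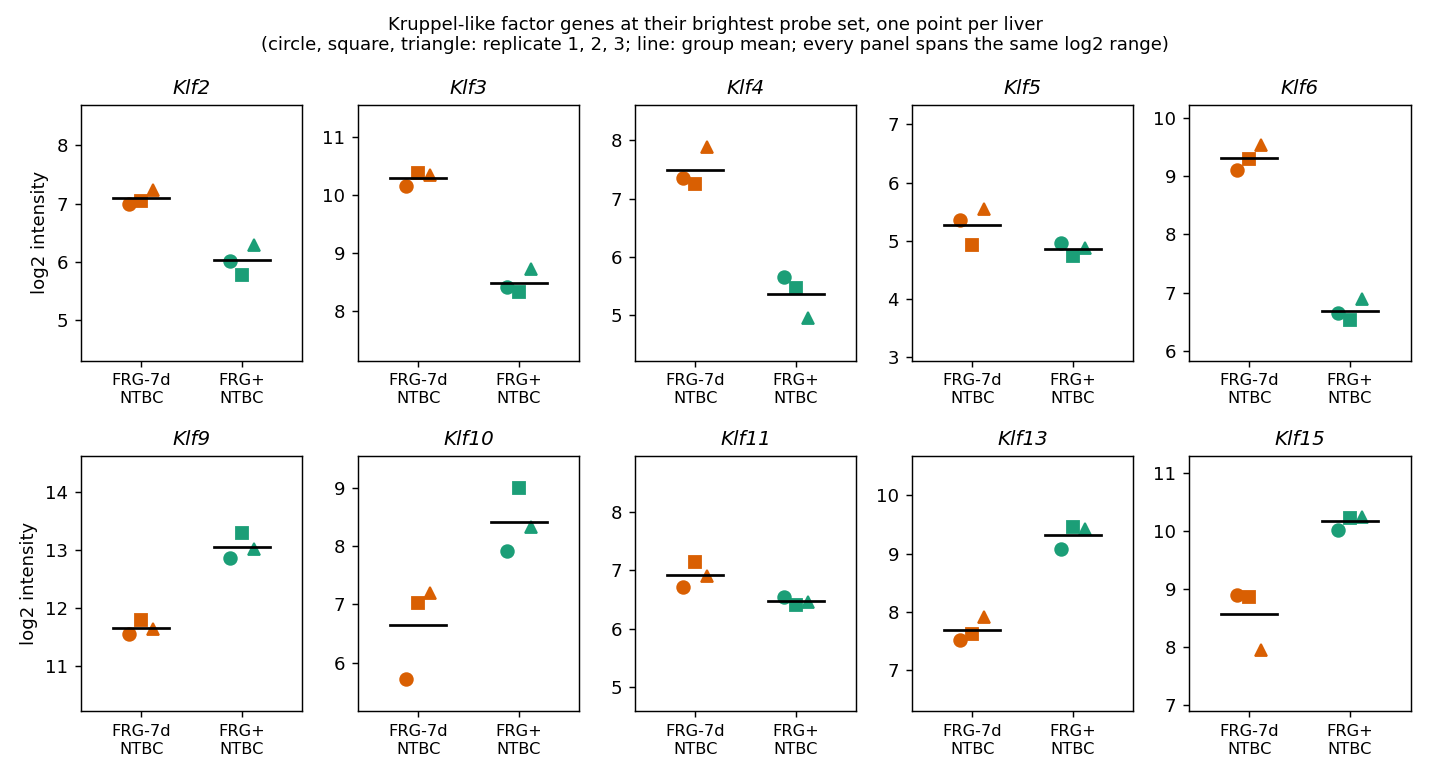
Log2 intensity (vertical axis, each panel spanning the same number of log2 units) of the 10 genes at their brightest probe set, 1 point per liver, with FRG-7dNTBC on the left, FRG+NTBC on the right and a line at each group mean. Klf2, Klf3, Klf4 and Klf6 lie higher and Klf9, Klf10, Klf13 and Klf15 lower in all 3 FRG-7dNTBC livers, while the groups of Klf5 overlap.

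Klf6, an early-response factor first described in liver in activated stellate cells of the rat, had the largest rise of the brightest probe sets. Its intensities were 549, 626 and 744 in FRG-7dNTBC livers, against 99.7, 91.8 and 118.6 in FRG+NTBC livers. Every FRG-7dNTBC liver lay far above every FRG+NTBC liver. The rise was 6.18-fold (log2 fold change 2.63, SE 0.16, limma adjusted p = 5.37e-05). All 5 Klf6 probe sets rose, by 1.53 to 2.80 on the log2 scale. Only the dimmest, with 25.1, 20.8 and 37.3 in FRG-7dNTBC livers against 12.9, 9.65 and 6.50 in FRG+NTBC livers, rose less than the brightest in a test of the difference itself (difference of log2 fold changes -1.10, SE 0.32, limma adjusted p = 0.0295).

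Klf4, a factor of epithelial barriers and of monocyte and macrophage differentiation that can halt the cell cycle, came next. At its brightest probe set it read 164, 152 and 236 in FRG-7dNTBC livers, against 50.6, 44.3 and 30.9 in FRG+NTBC livers, without overlap. This is 4.40-fold higher (log2 fold change 2.14, SE 0.23, limma adjusted p = 0.000476). The other Klf4 probe set gave a larger value, 9.62-fold, with 86.8, 189 and 228 in FRG-7dNTBC livers against 16.9, 17.2 and 14.4 in FRG+NTBC livers. The log2 fold changes of the pair differed by 1.13 (SE 0.31, limma adjusted p = 0.0222). The second probe set also spread more among FRG-7dNTBC livers, replicate 1 being the lowest there.

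Klf2, which keeps endothelium quiescent and anticoagulant and is induced by blood flow, rose less. Intensities of its single probe set were 128, 132 and 150.1 in FRG-7dNTBC livers, against 64.9, 54.6 and 77.7 in FRG+NTBC livers. The groups were apart, with FRG+NTBC replicate 3 the nearest to the FRG-7dNTBC livers. Klf2 was 2.09-fold higher (log2 fold change 1.07, SE 0.16, limma adjusted p = 0.00195).

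Klf5, a driver of proliferation in gut crypts, did not pass. Its brightest probe set read 40.8, 30.3 and 46.5 in FRG-7dNTBC livers and 31.1, 26.7 and 29.4 in FRG+NTBC livers. FRG-7dNTBC replicate 2 lay within the FRG+NTBC range. The log2 fold change was 0.41 with a 95% interval of 0.01 to 0.81 (limma adjusted p = 0.122), and without FRG-7dNTBC replicate 2 it was 0.59 (limma adjusted p = 0.0240). The other 2 probe sets of Klf5 read at most 14.5 in any liver and had log2 fold changes of 0.02 and -0.13.

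Klf3, the CtBP-binding repressor, rose at its brightest probe set. It read 1144, 1323 and 1296 in FRG-7dNTBC livers, against 340.1, 322 and 422 in FRG+NTBC livers. All FRG-7dNTBC livers were far above the others, and the rise was 3.49-fold (log2 fold change 1.80, SE 0.15, limma adjusted p = 0.000149). Of the 7 Klf3 probe sets, however, only 2 were called. The second called one had a log2 fold change of 1.35 and read 212, 276 and 93.1 in FRG-7dNTBC livers against 53.1, 79.3 and 78.2 in FRG+NTBC livers, so that replicate 3 was near the FRG+NTBC range. The 5 others had log2 fold changes of -0.45 to 0.43. Each of these 5 differed from the brightest probe set, by -2.25 to -1.37 on the log2 scale (limma adjusted p of 0.000328 to 0.00370). The dimmest of them read at most 22.9 and 21.1 in any liver, so their flat values carry little weight. Those at 0.43, 0.21 and -0.45 were not dim, each having a higher mean log2 intensity than the second called probe set. The one at 0.21 read 340, 370 and 413 in FRG-7dNTBC livers, against 260, 367 and 355 in FRG+NTBC livers. Over the mean of all 7 probe sets Klf3 still passed, with a log2 fold change of 0.46.

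Of the SIN3A-binding members, Klf9, Klf10 and Klf13 fell and Klf11 did not pass, while the SIN3A-binding Klf16, outside the 10, rose (log2 fold change 0.50). Klf9, a factor that answers to glucocorticoids and thyroid hormone, had 3019, 3541 and 3214 in FRG-7dNTBC livers, against 7434, 10016 and 8306 in FRG+NTBC livers. Every FRG-7dNTBC liver was below every FRG+NTBC liver. The gene was 2.62-fold lower (log2 fold change -1.39, SE 0.15, limma adjusted p = 0.000454). Of 7 probe sets 3 fell and none rose, the log2 fold changes of the called ones being -1.39, -1.51 and -1.13, and at the last of these the groups overlapped. Of the 4 others, 3 (log2 fold changes -0.49, 0.21 and -0.20) differed from the brightest in the test of the difference (limma adjusted p = 0.00816, 0.0156 and 0.00145), and the remaining one stood at -0.78. The probe set at -0.20 was dim, with at most 20.8 in any liver, and carries little weight. That at -0.49 was bright, with 1038, 1520 and 1053 in FRG-7dNTBC livers against 1510, 1758 and 1734 in FRG+NTBC livers. Its groups overlapped. The one at 0.21 read 97.7, 234 and 62.2 in FRG-7dNTBC livers, against 63.1, 131 and 111 in FRG+NTBC livers. Over the mean of all 7 probe sets Klf9 still passed, with a log2 fold change of -0.75.

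Klf13, known as a regulator of chemokine transcription in T cells, of which these mice have none that are mature, was clearly lower. Its brightest probe set read 184, 195 and 240.5 in FRG-7dNTBC livers, against 541, 699 and 689.8 in FRG+NTBC livers. The groups were well separated, with a 3.12-fold fall (log2 fold change -1.64, SE 0.16, limma adjusted p = 0.000333). Another probe set fell 5.36-fold, with 97.7, 79.9 and 86.8 in FRG-7dNTBC livers against 481, 516 and 422 in FRG+NTBC livers. This fall was larger than that of the brightest (difference -0.78, SE 0.23, limma adjusted p = 0.0281). The third, with at most 27.7 in any liver, had a log2 fold change of -0.23 and also differed from the brightest (limma adjusted p = 0.00117).

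Klf10, an early gene of the TGF-beta response with a daily rhythm in liver, was lower and more variable. Its single probe set read 52.7, 129.8 and 146 in FRG-7dNTBC livers, against 242, 512 and 324 in FRG+NTBC livers. No FRG-7dNTBC liver reached the FRG+NTBC range, but both groups spread by more than 2-fold. The fall was 3.43-fold (log2 fold change -1.78, SE 0.41, limma adjusted p = 0.0143). Without FRG+NTBC replicate 2 the call was lost (log2 fold change -1.49, limma adjusted p = 0.0598), as it was without moderation of the variances (limma adjusted p = 0.117), and without FRG-7dNTBC replicate 1 the log2 fold change was -1.31.

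Klf11, the nearest relative of Klf10, missed the threshold. It had 105, 141 and 120.3 in FRG-7dNTBC livers and 93.7, 85.0 and 88.0 in FRG+NTBC livers. The FRG-7dNTBC livers were all higher, by a small margin. The log2 fold change was 0.45 with a 95% interval of 0.12 to 0.78 (limma adjusted p = 0.0505), and without FRG-7dNTBC replicate 1 it was 0.55 (limma adjusted p = 0.0441).

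Klf15, which promotes amino acid breakdown and glucose production, read 474, 468 and 247 in FRG-7dNTBC livers, against 1038, 1201 and 1209 in FRG+NTBC livers. FRG-7dNTBC replicate 3 was the lowest, and all 3 were below the FRG+NTBC livers. Klf15 was 3.02-fold lower (log2 fold change -1.59, SE 0.25, limma adjusted p = 0.00249). Without FRG-7dNTBC replicate 3 the log2 fold change was -1.28, still past the threshold, and without moderation the adjusted p was 0.0509.

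Over the 31 probe sets, 10 rose and 7 fell, compared with 14% and 13.9% of all probe sets, or 27.9% in either direction. Each of these 17 changed at least 2-fold, as 7.61% of all probe sets did upward and 5.12% downward. The groups did not overlap at 19 of the 31, beside 44.1% of all probe sets. No gene had probe sets called in both directions. Every probe set was called for Klf4 and Klf6, and only some were for Klf3, Klf9 and Klf13. Of 21 further probe sets of the 6 genes with several, 12 differed from the brightest of their gene at an adjusted p under 0.05 from limma, beside 29.1% of all such differences on the array. Folds named without a probe set are those of the brightest, and for several genes outside the 10 only some probe sets were called.

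**Figure D2:**
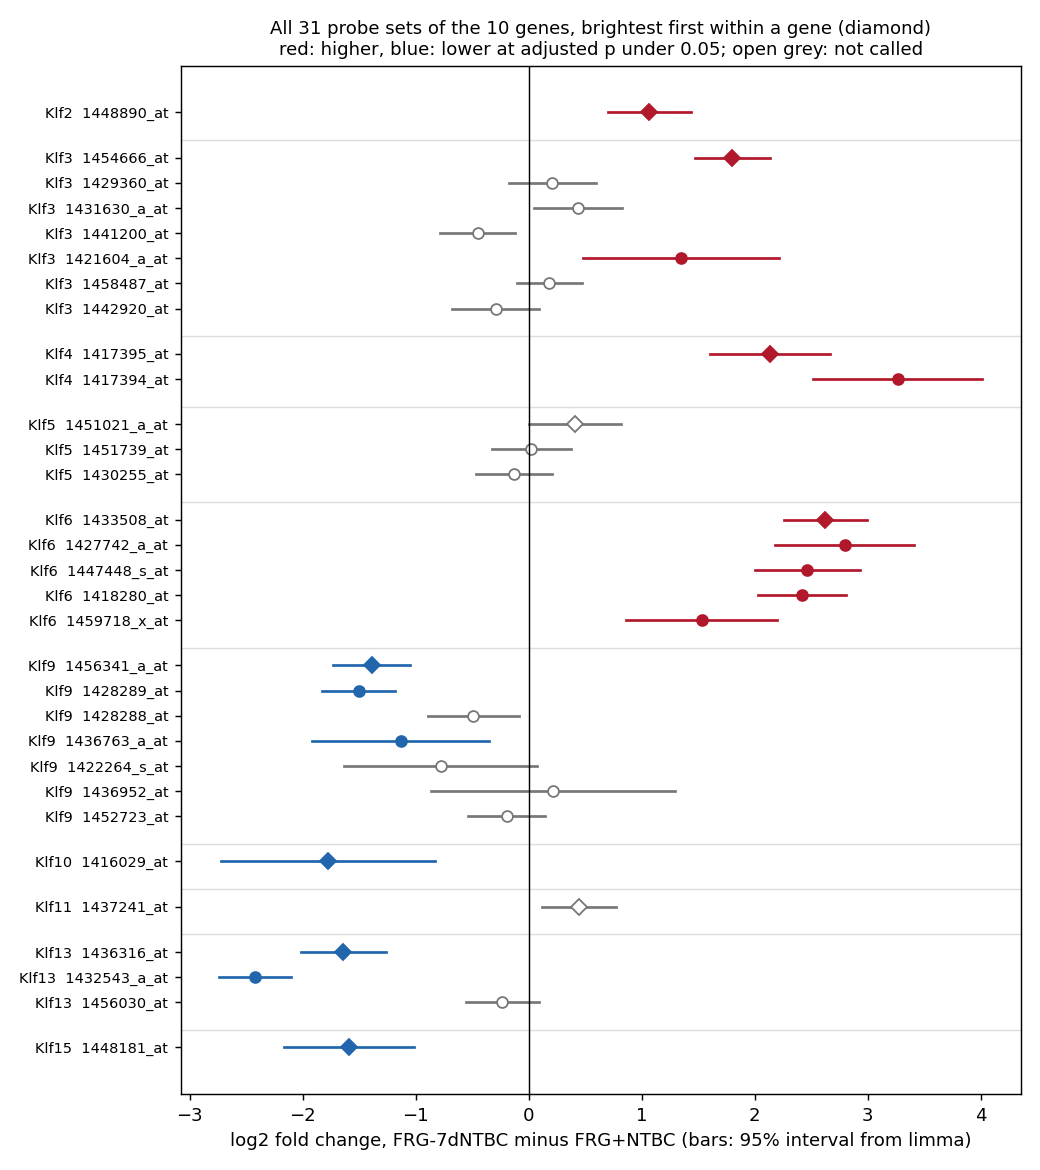
Log2 fold change (horizontal axis, FRG-7dNTBC minus FRG+NTBC) with its 95% interval from limma for all 31 probe sets, grouped by gene and ordered by brightness, with a diamond for the brightest. Filled red points are higher and filled blue points lower at an adjusted p under 0.05, and open points did not pass. The 5 probe sets of Klf6 are all red, whereas 2 of 7 for Klf3 are red and 3 of 7 for Klf9 are blue.

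Leaving out 1 liver at a time did not change the direction of any of the 10 genes. Klf2, Klf3, Klf4, Klf6, Klf9, Klf13 and Klf15 passed limma in all 6 of these fits. Their log2 fold changes ranged from 0.94 to 1.20 for Klf2, from 1.73 to 1.92 for Klf3, from 1.93 to 2.29 for Klf4 and from 2.51 to 2.73 for Klf6. Among the genes that fell they ranged from -1.49 to -1.27 for Klf9, from -1.76 to -1.56 for Klf13 and from -1.75 to -1.28 for Klf15, and the widest range, -2.05 to -1.31, was that of Klf10.

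**Figure D3:**
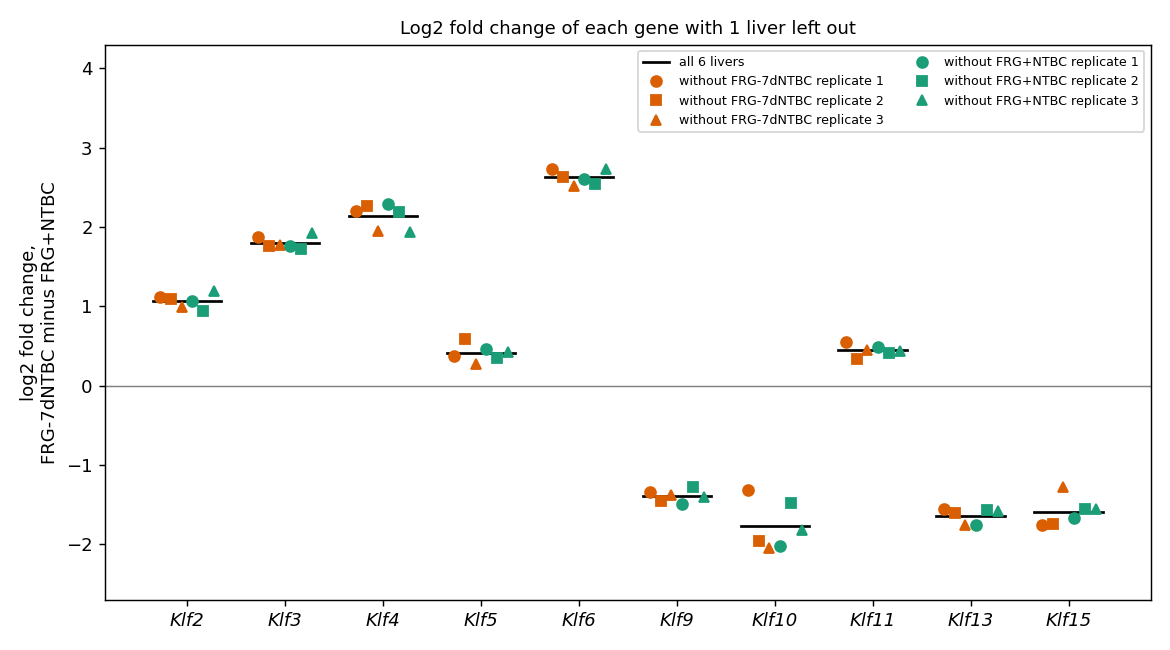
Log2 fold change (vertical axis, FRG-7dNTBC minus FRG+NTBC) of each gene with all 6 livers (line) and with 1 liver left out (points, coloured by the group of the liver left out). The points of Klf6 lie between 2.51 and 2.73, and those of Klf10 spread from -2.05 to -1.31.

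Of 13 other KLF and SP genes on the array, 2 rose and 3 fell at their brightest probe sets, a share near the 30.2% of all genes called in either direction. Klf12, a CtBP-binding repressor like Klf3, read 143, 106 and 111 in FRG-7dNTBC livers, against 484, 580.0 and 560.3 in FRG+NTBC livers. It was the largest change among these genes, in the direction opposite to Klf3 (log2 fold change -2.18, SE 0.15, limma adjusted p = 9.23e-05), and 3 of its 5 probe sets fell. The activator Klf7 (log2 fold change -0.62) and Sp7, a factor of bone formation (-0.47), were lower, while the SIN3A-binding Klf16 (0.50) and the ubiquitous Sp3 (0.74) were higher. Of these 5, Klf12 alone changed at least 2-fold. None of the 13 rose and 1 fell when FRG+NTBC replicate 2 was left out, and 1 rose and 1 fell when either replicate 1 was. After scaling to the 75th percentile 5 fell, and without moderation of the variances 1 rose and 1 fell.

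Over all genes, 17.4% were higher and 12.7% lower, or 30.2% in either direction. Among 12 corepressors and coactivators that KLF proteins recruit, 4 rose and none fell at their brightest probe sets, a share near that 30.2%. They were Sap30 (log2 fold change 1.59, SE 0.18) and Sin3b (1.04, SE 0.14) of the SIN3 complex, and the histone deacetylases Hdac2 (0.85) and Hdac1 (0.83). Of the 5 Sin3b probe sets 3 rose and 1 fell. Sap30 read 352, 298 and 322 in FRG-7dNTBC livers, against 130.7, 82.7 and 114.6 in FRG+NTBC livers. Sin3a, Ctbp1 and Ctbp2 did not pass, at -0.25, -0.42 and 0.49. After scaling to the 75th percentile or quantile normalization 2 of the 12 fell, and 1 fell when FRG+NTBC replicate 1 or FRG-7dNTBC replicate 3 was left out. Of 6 ubiquitin ligases that act on KLF proteins, Wwp1, a ligase of KLF2 and KLF5, fell by 1.09 on the log2 scale and Siah1a, a ligase of KLF10, rose by 0.45. These are values of the brightest probe sets, and of the 3 Wwp1 probe sets 1 fell and 1 rose. The call of Wwp1 was lost without FRG+NTBC replicate 1 or replicate 3, and that of Siah1a in 4 of the 6 fits with 1 liver left out, those without replicate 1 or 2 of either group, as well as under both other scalings, trended robust moderation and the replicate block.

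Genes of the ERK5 and MEF2 route, through which Klf2 and Klf4 are induced in endothelium, were mixed, 2 of 8 being higher and 3 lower. The shares of all genes were 17.4% higher and 12.7% lower. The MEF2 genes Mef2a and Mef2d rose by 0.69 and 0.65, and the upstream kinases Map3k2, Map2k5 and Map3k3 fell (log2 fold changes -1.33, -0.94 and -0.43). Mapk7, the gene of ERK5 itself, did not pass (log2 fold change 0.35, limma adjusted p = 0.0836). Only 1 member was lower when FRG+NTBC replicate 2 or 3 or FRG-7dNTBC replicate 1 was left out, 1 was higher when FRG+NTBC replicate 1 was, and none passed without moderation. Of 4 endothelial genes that KLF2 or KLF4 are known to regulate, Thbd, the anticoagulant receptor thrombomodulin, rose by 1.73 (SE 0.15). It had 105, 90.5 and 87.4 in FRG-7dNTBC livers, against 25.1, 27.7 and 32.9 in FRG+NTBC livers. S1pr1, a lipid receptor of endothelium and lymphocytes, fell by 1.14 on the log2 scale, a call lost without any 1 of 5 livers, the exception being FRG+NTBC replicate 1. The nitric oxide synthase gene Nos3 and the water channel gene Aqp1 stood at 0.47 and 0.35 and did not pass, but the number of members higher was 2 without FRG+NTBC replicate 1 or replicate 3.

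Because endothelial cells, macrophages and stellate cells express Klf2, Klf4 and Klf6, their markers were read on the same arrays. Background shares were 17.4% of all genes higher and 12.7% lower. Sinusoidal endothelial markers had 2 of 8 genes higher and none lower, the hyaluronan receptor Lyve1 (log2 fold change 1.78) and the lectin Clec4g (0.74). Their summed intensity was 1887 to 2314 in FRG-7dNTBC livers and 1174 to 1769 in FRG+NTBC livers, and Pecam1, Cdh5 and Kdr stood at 0.48, 0.66 and -0.02 without passing. Macrophage markers had 4 of 7 genes higher (Cd68, Vsig4, Marco and Timd4), with sums of 1310 to 3484 in FRG-7dNTBC livers and 1439 to 1886 in FRG+NTBC livers, whereas Adgre1 and Csf1r stood at -0.08 and 0.09. Only 1 macrophage marker passed when FRG+NTBC replicate 2 or FRG-7dNTBC replicate 1 was left out, and 2 when FRG+NTBC replicate 1 was. Of the endothelial markers 1 passed when FRG+NTBC replicate 1 or 2 or FRG-7dNTBC replicate 1 was left out, and 4 when FRG-7dNTBC replicate 3 was. The endothelial count was 5 of 8 with array weights, 3 with the replicate number as a block and 1 after quantile normalization or without moderation, and the macrophage count was 1 of 7 without moderation. Stellate markers had 1 of 6 genes higher, Lrat at 1.14, which was lost when FRG+NTBC replicate 3 was left out, and sums of 2774 to 4503 in FRG-7dNTBC livers and 2116 to 3694 in FRG+NTBC livers. Of 3 neutrophil, 5 cholangiocyte and 4 smooth muscle markers none passed at its brightest probe set, though 1 of 2 Epcam probe sets, a cholangiocyte marker, rose. With array weights or the replicate block 1 neutrophil and 1 cholangiocyte marker were higher, and 1 smooth muscle marker was lower after scaling to the 75th percentile, with trended robust moderation or with array weights. The part of these cell types in the values of Klf2, Klf4 and Klf6 was not tested.

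Of 5 measured cell cycle genes linked to KLF4 and KLF6, 2 rose and none fell, beside 17.4% and 12.7% of all genes. Cdkn1a, the inhibitor p21 that both factors can activate, read 3040.3, 3327 and 3902 in FRG-7dNTBC livers, against 74.5, 99.7 and 131.6 in FRG+NTBC livers. Its log2 fold change was 5.10 (SE 0.21, limma adjusted p = 1.29e-05). Cdkn1c, another inhibitor, rose by 1.40 (SE 0.32), and only 1 of the 5 genes rose when FRG+NTBC replicate 2 or 3 was left out. Cdkn1b, Ccnd1 and Ccne1 did not pass, at -0.39, 0.34 and 0.27.

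Of 5 measured amino acid and glucose genes known to depend on KLF15, 4 fell and none rose, beside 12.7% and 17.4% of all genes. Prodh, proline dehydrogenase, read 269, 236 and 182 in FRG-7dNTBC livers, against 2320.1, 1771 and 1675 in FRG+NTBC livers, with a log2 fold change of -3.07 (SE 0.19). The gluconeogenic enzyme Pck1 (log2 fold change -2.48), tyrosine aminotransferase (Tat, -1.92) and Bcat2, which transaminates branched-chain amino acids (-1.29), were also lower. Of the 3 Pck1 probe sets 1 fell. FRG-7dNTBC replicate 3, the liver lowest in Klf15, was also lowest in Prodh (182), Pck1 (187) and Tat (443), whereas replicate 2 was lowest in Bcat2 (16.9, against 24.1 and 19.7 in the other FRG-7dNTBC livers). Genes outside this list were lowest in replicate 3 too, namely Hpd (4124), the gene of the enzyme that NTBC blocks, and the hepatocyte markers Cps1 (5008), Fgb (7804) and Apoa1 (21174). The hepatocyte markers Alb and Ttr were not. Whether any of these values is linked to Klf15 was not tested. The alanine aminotransferase gene Gpt did not pass at its brightest probe set (-0.14), but 1 of its 2 probe sets fell. Without moderation 2 of the 5 fell.

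Of 13 genes of the clock and its output, 8 were lower and 3 higher, beside 12.7% and 17.4% of all genes. The output factors Dbp, Hlf and Tef are among the 8. They lie downstream of the core clock, which drives the daily rhythm of Klf9, Klf10 and Klf15. Dbp, an E-box target and output factor of the clock, fell by 4.59 on the log2 scale (SE 0.18), with 204, 131 and 159.8 in FRG-7dNTBC livers against 4182, 3902 and 3616 in FRG+NTBC livers. The repressors Per3 and Per2 (log2 fold changes -2.91 and -1.79) and the output factors Hlf and Tef (-1.90 and -1.69) fell too. The activators Clock and Arntl (BMAL1), by contrast, rose by 1.83 and 1.35, and the repressor Cry1 rose by 0.63. Only 1 of 4 Clock probe sets and 1 of 2 Arntl probe sets were called. The number of members lower was 5 without moderation or without FRG+NTBC replicate 2. The hour at which each liver was collected is not given in the sources used here, and its part in these values was not tested.

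The glucocorticoid receptor gene Nr3c1 was lower (log2 fold change -0.72, SE 0.15, limma adjusted p = 0.00810), and 9 targets of the receptor moved both ways. Of the 6 Nr3c1 probe sets 2 fell. Tat, Tsc22d3 and Per1 fell (log2 fold changes -1.92, -1.27 and -0.90), whereas the metallothionein gene Mt2, the kinase gene Sgk1 and Angptl4 rose by 3.88, 1.72 and 1.27. Fkbp5, Dusp1 and Zbtb16 did not pass. With the receptor gene, 4 of the 10 genes of this list were thus lower and 3 were higher. Tat was also counted among the genes linked to KLF15, and Per1 among those of the clock. Whether the values of Klf9 and Klf15 are linked to the receptor was not tested. Shares of all genes, for this list and the next, were 12.7% lower and 17.4% higher. Of 10 measured genes of the TGF-beta route, of which Klf10 and Klf11 are early targets, 4 rose and 1 fell. The receptors Tgfbr2 and Tgfbr1 rose by 2.72 and 0.99, the SMAD repressor Skil by 1.57 and Smad2 by 0.82, and Smad4 fell by 1.48 on the log2 scale. The probe sets called higher were 2 of 3 for Tgfbr2, 1 of 3 for Tgfbr1 and 1 of 2 for Skil and for Smad2. For Smad4 1 of 3 was called lower. Tgfb1 itself did not pass at its brightest probe set (-0.21), although 1 of its 2 probe sets fell, nor did Smad7 (-0.10), a target that KLF10 and KLF11 can repress. Without moderation 1 of the 10 rose.

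**Figure D4:**
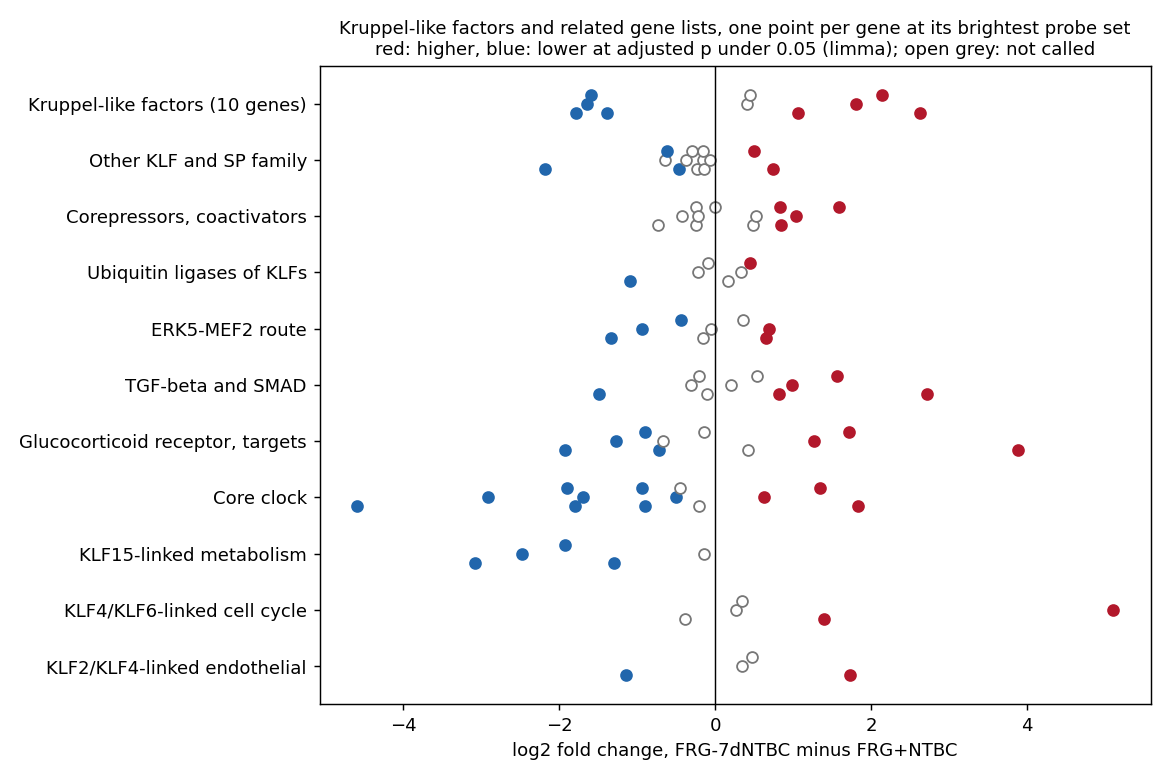
Log2 fold change (horizontal axis, FRG-7dNTBC minus FRG+NTBC) of the 10 Kruppel-like factors and of 10 related gene lists, 1 point per gene at its brightest probe set. Filled red points are higher and filled blue points lower by limma (adjusted p under 0.05), and open points did not pass. The core clock row, which includes the output factors Dbp, Hlf and Tef, holds 8 blue points down to -4.59 (Dbp). The KLF15-linked row holds 4 blue points down to -3.07.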

How the data were processed

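RNA of 6 livers was amplified with a 3' IVT kit and hybridised to Affymetrix mouse arrays. The authors made the deposited intensity values by Robust Multiarray Analysis (background correction, quantile normalization, median polish). Transcriptome Analysis Console is the tool listed in the submitters' notes. Values are on a linear scale. They are relative and hold no detection call. Their log2 was fitted in R 4.3.3 with limma 3.58.1 (lmFit, eBayes) without covariates, as the design has 2 groups, with Benjamini-Hochberg adjustment over 45037 probe sets. The fit was tested on simulated data first. A probe set was called at an adjusted p under 0.05. Probe sets were named by the array annotation (34945 with 1 symbol, 932 with several and 9160 with none, of which only those with 1 symbol were named). Further probe sets of a gene were set against its brightest by the same fit of their log2 difference, over 16752 differences. Members and the 10 pathway and 8 marker lists were chosen with earlier results of these data known, so counts over them are descriptions. Named are all members with every probe set counted, all called genes of the rest of the family, of each other list up to 4 called genes by size of change and its regulator, and the 3 genes nearest to the members with the largest rise and fall. Further genes of the lists, called or not, were named after their values were seen. Animals are separate by the labels, which give no batch or scan date. Precision is limited by 3 arrays per group. Alternatives concerned scaling, dim probe sets, moderation, array weights, the replicate number as a block, a 2-fold threshold, probe set class, the mean of all probe sets and leaving out each liver.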

Additional observations from a re-analysis of the deposited data

How the results depend on the processing

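Among the 10 genes, 151 of 160 log2 fold changes under alternatives kept their direction and their side of the threshold, and none changed direction. The calls of Klf10 and Klf15 were lost without moderation and that of Klf10 also without FRG+NTBC replicate 2, while Klf5 and Klf11 each passed under 3 alternatives. Without moderation, 2 Klf genes and 4 Klf probe sets were lower, 7 probe sets differed from the brightest of their gene, 13 genes of the other lists were higher and 11 lower, and 3141 of all probe sets were higher and 3336 lower. With array weights 11 Klf probe sets were lower. With a 2-fold threshold, 12 genes of the other lists were higher and 15 lower, of 22 and 23 without it, and 3427 probe sets were higher and 2305 lower, of 6284 and 6262. Scaling to the 75th percentile gave 9669 lower probe sets. Without dim probe sets (mean log2 under 5) 7 of the 14 remaining differences within a Klf gene were called, of 12 of 21, and 7 when quantile normalization was added, an alternative chosen after seeing the data. Leaving out 1 liver gave 3864 to 6400 lower probe sets, fewest without FRG+NTBC replicate 2, and 14 to 22 lower genes of the other lists. It gave 8 to 12 called differences within a gene, 5 to 8 lower and 9 to 11 higher Klf probe sets. The labels give both groups the replicate numbers 1 to 3 without saying what they share, and deviations of same-numbered livers from their group means correlated at 0.11, 0.03 and -0.16. With the replicate number as a block 10 Klf probe sets were higher and 8 lower, 4 and 4 Klf genes were called, and 6076 and 5272 of all probe sets. No detection calls accompany the values, so dim probe sets such as those of Klf5 carry little weight.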

Other observations

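The genes whose pattern over the 6 livers was most like that of Klf6, by the root mean square distance between log2 values centred on each gene's mean, were Samd4, an RNA-binding protein gene (0.12), Prune1 (0.12) and Ctps, the gene of CTP synthase (0.14). Their log2 fold changes were 2.77, 2.82 and 2.56. Samd4 read 537, 572 and 714 in FRG-7dNTBC livers, against 77.2, 88.0 and 102.5 in FRG+NTBC livers. For Klf10, the member with the largest fall at its brightest probe set, the nearest were Elovl5, a fatty acid elongase (0.36), the unnamed transcript 4930523C07Rik (0.36) and Bhlhe40, an E-box-binding repressor (0.39). Bhlhe40 read 229, 313 and 282 in FRG-7dNTBC livers, against 657, 1024 and 760.1 in FRG+NTBC livers. Likeness over 6 livers mostly reflects the group difference and says nothing of shared control.

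Other promoter motifs were searched on both strands of the same 8 windows. The antioxidant response element of the letters TGACNNNGC, the site of NRF2, occurred in Klf3, Klf6 and Klf15 and in 12.4% of all promoters. The GC-box GGGCGG, itself a site for KLF and SP proteins, occurred in 7 of the 8, all but Klf9, and in 35.7% of all promoters. CACCC and CCAAT occurred in 5 of the 8 each, beside 57.5% and 37.4% of all promoters. The site TTATGNAA of DBP occurred in none, beside 3.38%, and TATAAA in none, beside 13.6%. Matches were found in members that rose and in members that fell.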
